A study of Mus musculus with 4 samples.

Results

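Levels of 9 cell death genes were read on 4 arrays: 1 death ligand (Tnfsf10), 2 death receptors (Tnfrsf10b and Fas), 4 caspases (Casp8, Casp1, Casp4 and Casp12) and 2 necroptosis genes (Ripk3 and Mlkl). They were chosen by name, by matching the gene name that each array feature carries to this list of 9, and 12 of the 41174 non-control features (probes) belonged to them, 9 of 26793 gene names in all. Tnfrsf10b had 3 features, Fas had 2 and the other 7 genes had 1 each. The cells were IMS/N, a line of hepatic stellate cells (the vitamin A-storing, matrix-producing cells of the liver) taken from normal 129/Sv mice and immortalized with SV40 virus. Total RNA was labelled with Cy3 and hybridised on a 1-colour Agilent mouse array.

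Each array held 1 culture condition. IMS/N cells received palmitic acid (PA, a saturated fatty acid) together with medium from cultures of adipose tissue-derived stem cells (ADSCs), PA alone, ADSC medium alone, or neither (control). The ADSCs were grown from inguinal subcutaneous fat of male C57BL/6J mice 8 to 10 weeks old. All 4 arrays shared the line and its immortalization. The dose and duration of PA, its vehicle and the medium given to control cells were not given in the sources used here, so that products of ADSCs and a change of base medium cannot be told apart. With 1 array for each condition there was no test and no spread between cultures. A level below is a quantile-normalized log2 intensity, a difference is the log2 level of the first-named array minus that of the second, and a gene counts as higher or lower when the arrays differ by at least 1.5-fold, which is 0.58 on the log2 scale. The error available was the SD between replicate spots within an array, taken from the 245 probes printed on 10 spots. It covers differences between spots, and not labelling, hybridisation, differences between arrays or culture.

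Between 67.6% and 70.0% of probes were well above background on an array, the 4 arrays lay on 1 slide and were read in 1 scan, and no spot was saturated. Of 10 stellate cell and myofibroblast markers, 7 were well above background on every array, while Lrat, Reln and Hand2 were so on none. Of the lists for other cell types, some markers were well above background on every array and others on none. Fabp4, Pparg and Cidec of 6 adipocyte markers were detected on every array and Adipoq, Plin1 and Lep on none, and of 5 hepatocyte markers Cyp3a11 was detected and Alb, Apoa1, Ttr and Fgb were not. Of the endothelial markers, 3 of 6 were detected (Pecam1, Cdh5 and Tie1 were not), and of the biliary or epithelial markers 3 of 5 (Epcam and Cdh1 were not). Of 10 leukocyte markers, Ptprc, Adgre1, Cd163 and Clec4f were never well above background. In bulk RNA of this kind, fewer cells carrying a transcript and less transcript in each cell cannot be told apart.

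Death receptors of the tumour necrosis factor family carry an intracellular death domain. When TRAIL (the product of Tnfsf10) binds its receptor (Tnfrsf10b), or Fas ligand binds Fas, the adaptor FADD recruits caspase-8, which activates executioner caspases. Where caspase-8 is blocked, the kinase RIPK3 can phosphorylate MLKL, which then ruptures the plasma membrane (necroptosis). Caspase-1, caspase-12 and the murine caspase-11 encoded by Casp4 belong to the inflammatory caspases, of which caspase-1 matures interleukin-1 beta and interleukin-18 and caspase-11 senses cytosolic lipopolysaccharide and cleaves gasdermin D. In the liver, TRAIL and Fas are known as routes by which stellate cells are killed. Tnfsf10, Casp4 and Mlkl are among the genes known in mouse to be interferon-inducible. The other members were not sorted by this property, and the members were chosen with earlier results of these data known. Whether interferon-inducible members differ from the rest was therefore not tested.

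The promoter windows of 5 of the genes are shown because these are the genes whose level differed at least 1.5-fold in a comparison (Tnfsf10, Casp4, Casp12) or whose window held a searched motif (Fas, Casp12, Ripk3). Each runs from 250 bases before to 50 bases after the annotated start, 5′ to 3′ on the gene's strand, from RefSeq on GRCm38.p6. A pair of motifs bound by interferon-activated factors were searched on both strands, the core of the interferon-stimulated response element, GAAANNGAA, and the gamma-activated site, TTCNNNGAA. Capitals mark the matches.
Tnfsf10, chr3:27316827-27317126, plus strand: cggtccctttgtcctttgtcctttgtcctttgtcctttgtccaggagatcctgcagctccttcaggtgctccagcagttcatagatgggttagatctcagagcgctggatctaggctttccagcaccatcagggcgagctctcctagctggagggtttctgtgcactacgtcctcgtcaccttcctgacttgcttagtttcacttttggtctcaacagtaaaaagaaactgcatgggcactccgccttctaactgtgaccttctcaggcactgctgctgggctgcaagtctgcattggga
Fas, chr19:34290409-34290708, plus strand: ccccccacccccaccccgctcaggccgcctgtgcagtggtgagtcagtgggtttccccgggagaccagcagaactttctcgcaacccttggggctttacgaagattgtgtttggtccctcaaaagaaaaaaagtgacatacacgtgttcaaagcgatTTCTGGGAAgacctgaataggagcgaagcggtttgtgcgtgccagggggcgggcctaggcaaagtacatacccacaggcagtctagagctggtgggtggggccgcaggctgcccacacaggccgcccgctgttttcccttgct
Casp4, chr9:5308599-5308898, plus strand: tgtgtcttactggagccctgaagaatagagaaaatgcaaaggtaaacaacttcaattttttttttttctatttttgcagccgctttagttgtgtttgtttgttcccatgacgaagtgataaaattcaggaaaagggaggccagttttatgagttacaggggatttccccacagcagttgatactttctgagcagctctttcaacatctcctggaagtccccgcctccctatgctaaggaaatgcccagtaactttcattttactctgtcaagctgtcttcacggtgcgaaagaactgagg
Casp12, chr9:5345226-5345525, plus strand: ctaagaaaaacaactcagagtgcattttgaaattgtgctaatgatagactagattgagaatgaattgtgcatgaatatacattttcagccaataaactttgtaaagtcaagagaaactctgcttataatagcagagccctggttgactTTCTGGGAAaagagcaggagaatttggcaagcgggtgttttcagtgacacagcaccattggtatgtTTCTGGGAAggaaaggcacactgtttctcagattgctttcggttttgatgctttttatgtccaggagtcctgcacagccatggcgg
Ripk3, chr14:55788808-55789107, minus strand: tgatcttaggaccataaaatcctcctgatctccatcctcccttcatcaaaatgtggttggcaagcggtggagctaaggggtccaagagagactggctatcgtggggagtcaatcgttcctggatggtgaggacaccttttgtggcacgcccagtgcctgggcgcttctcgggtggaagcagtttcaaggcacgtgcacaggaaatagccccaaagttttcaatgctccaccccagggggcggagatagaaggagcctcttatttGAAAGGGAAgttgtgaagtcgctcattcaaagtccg

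Windows were found for 8 of the 9 genes, all but Tnfrsf10b. The response element core occurred in 1 of the 8, Ripk3, where its first base lay at position 14 after the start. The gamma-activated site occurred in Fas, with its first base at position -93 from the start, and at 2 places in Casp12, at positions -102 and -36. All 3 of those matches read TTCTGGGAA. Of all 32851 windows, 8.56% held the response element core and 8.30% the gamma-activated site. Counted by gene, as for the members, the shares were 9.76% and 9.55% of 27025 genes. Neither motif was matched in the windows of Tnfsf10, Casp4 (which has 2 overlapping windows, with starts 11 bases apart), Casp8, Casp1 or Mlkl. A match describes letters and is not a binding site, and no match says only that these letters are not in the window. The 2 motifs can overlap each other in principle, and each was counted by itself.

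**Figure D1:**
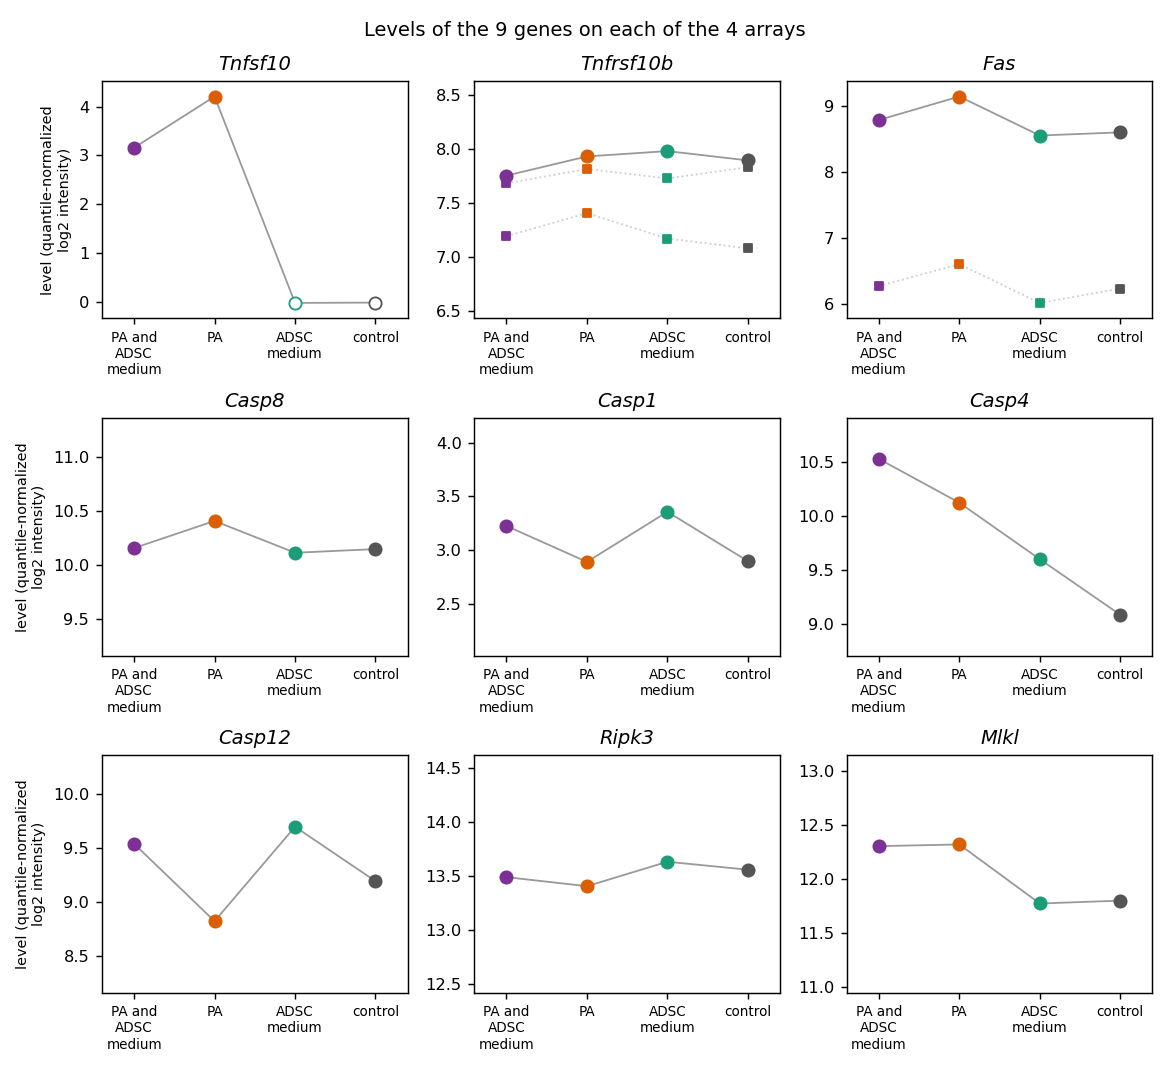
Level of each of the 9 genes on the 4 arrays, in quantile-normalized log2 intensity, with 1 panel per gene and a span of at least 2 units on each vertical axis. Filled points were well above background, open points were not, and small squares are the further probes of Tnfrsf10b and Fas, each probe to be read only against itself. Tnfsf10 was well above background on the 2 arrays that received PA, with or without ADSC medium, and on neither other array, and Casp4 was highest with PA and ADSC medium.

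Tnfsf10 encodes TRAIL, the ligand of the group, and its probe lies at chr3:27234836-27234895 (mm9, plus strand; exon and untranslated region annotation of that build was not used here). Its level was 3.16 with PA and ADSC medium, 4.21 with PA, -0.02 with ADSC medium and -0.02 in control cells. It was well above background on both arrays with PA and on neither array without it. Tnfsf10 was therefore at least 3.43-fold higher with PA than in control cells, at least 1.66-fold higher with PA and ADSC medium than in control cells, and at least 1.81-fold higher with PA and ADSC medium than with ADSC medium alone. These are lower bounds, since the dim array was set to the lowest level that was well above background on it, 2.43 for control and 2.30 for ADSC medium. The addition of ADSC medium to PA went with a level lower by 1.05 on the log2 scale (difference -1.05, 2.07-fold lower), measured on both arrays, against a spot SD of 0.23 for a difference at this intensity. The call rests on the scanner's background correction. With normexp background correction in place of the scanner's, the differences were 0.35 for PA against control, 0.17 for PA and ADSC medium against control and -0.18 for PA and ADSC medium against PA, and none of them reached 1.5-fold.

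Tnfrsf10b encodes the death receptor for TRAIL in mouse. Its 3 probes lie at chr14:70175991-70176048, chr14:70177538-70177597 and chr14:70183189-70183248 (mm9, plus strand). The brightest, at 70177538, read 7.75 with PA and ADSC medium, 7.93 with PA, 7.98 with ADSC medium and 7.89 in control cells. ADSC medium lay 0.05 above PA and PA 0.04 above control, each less than the spot SD of 0.08, and the array with PA and ADSC medium lay 0.14 below control. The probe at 70183189 read 7.19 with PA and ADSC medium, 7.41 with PA, 7.17 with ADSC medium and 7.08 in control cells, and that at 70175991 read 7.68, 7.82, 7.73 and 7.83 in the same order. The probes did not share an order: the highest array was ADSC medium for the first, PA for the second and control for the last. Their full ranges over the 4 arrays were 0.23, 0.33 and 0.15, so that no comparison reached 1.5-fold on any of them.

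Fas encodes the receptor for Fas ligand and was measured most precisely, since its probe for transcript NM_007987 (chr19:34401902-34401961, mm9, plus strand) is printed on 10 spots. Its level was 8.78 with PA and ADSC medium, 9.14 with PA, 8.55 with ADSC medium and 8.59 in control cells. The PA array was the highest, the array with both treatments came next, and ADSC medium lay below control by 0.0473 against a spot SD of 0.0253. The difference was 0.54 for PA against control (1.46-fold), just under the 1.5-fold mark, 0.19 for PA and ADSC medium against control, and -0.36 for PA and ADSC medium against PA (1.28-fold lower). Before normalization between arrays, the 10 spots ran from 8.69 to 8.88 with PA and ADSC medium, from 9.31 to 9.43 with PA, from 8.32 to 8.49 with ADSC medium and from 8.39 to 8.57 in control cells. The spots of PA overlapped those of no other array, and the spots of PA and ADSC medium overlapped neither ADSC medium nor control. The arrays also differed in overall brightness before normalization, as the 75th percentile of processed intensity was 542 with PA and ADSC medium, 622 with PA, 497 with ADSC medium and 495 in control cells. The second Fas probe, for transcript NM_001146708 (chr19:34383733-34383792), read 6.26 with PA and ADSC medium, 6.60 with PA, 6.01 with ADSC medium and 6.23 in control cells. It ranked the 4 arrays in the same order as the first, with PA highest and ADSC medium lowest, though its levels with PA and ADSC medium and in control cells were 0.04 apart.

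**Figure D2:**
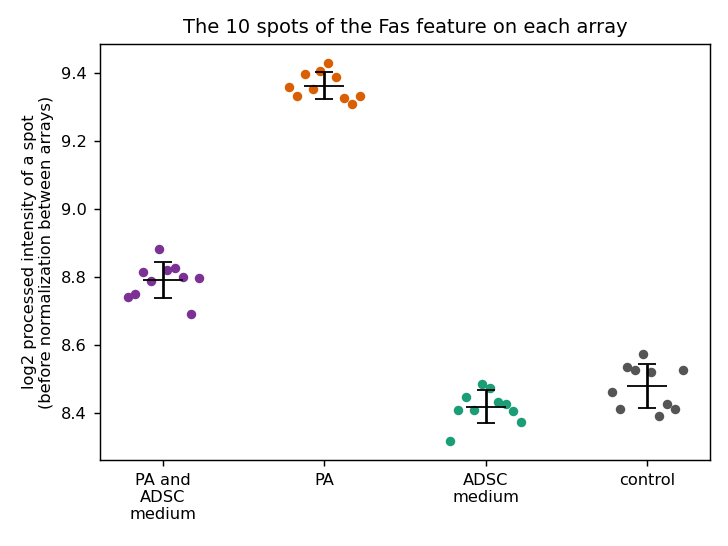
Log2 processed intensity of each of the 10 spots of the NM_007987 probe of Fas on each array, before normalization between arrays, with the mean and SD over spots as bars. The PA spots lie between 9.31 and 9.43, above all spots of the other 3 arrays, and the spread is that of spots on an array and not of cultures.

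Casp8 encodes the initiator caspase that both receptors recruit. Its probe (chr1:58901601-58901660, mm9, plus strand) read 10.16 with PA and ADSC medium, 10.41 with PA, 10.12 with ADSC medium and 10.15 in control cells. PA alone stood above the rest, by 0.26 over control (1.20-fold), and the other 3 arrays lay within 0.04 of each other, less than the spot SD of 0.07. The addition of ADSC medium to PA gave a difference of -0.25. Fas and Casp8 thus were both highest with PA alone, and the order of the other 3 arrays for Casp8 changed with the scaling and the background correction.

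The 3 inflammatory caspase genes Casp1, Casp4 and Casp12 are neighbours on chromosome 9, with 0 genes between Casp1 and Casp4 and 0 between Casp4 and Casp12 in the RefSeq order on GRCm38.p6. Their levels did not follow a common order. Casp4, which encodes the lipopolysaccharide-sensing caspase-11 of mouse (probe chr9:5336645-5336704, mm9, plus strand), read 10.53 with PA and ADSC medium, 10.12 with PA, 9.60 with ADSC medium and 9.08 in control cells. Every step in that order exceeded the spot SD of 0.07, the smallest being 0.41 between PA with ADSC medium and PA alone. Casp4 was 2.72-fold higher with PA and ADSC medium than in control cells (difference 1.44), 2.05-fold higher with PA than in control cells (difference 1.04) and 1.90-fold higher with PA and ADSC medium than with ADSC medium alone (difference 0.93). ADSC medium alone against control gave 0.52 (1.43-fold) and its addition to PA gave 0.41 (1.32-fold), both under the 1.5-fold mark. Casp4 was thus the member with the largest measured difference between arrays that both detected it.

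Casp12 encodes an inflammatory-group caspase that in mouse is known for its link to the endoplasmic reticulum. Its probe (chr9:5372258-5372317, mm9, plus strand) read 9.54 with PA and ADSC medium, 8.82 with PA, 9.70 with ADSC medium and 9.20 in control cells. Both arrays with ADSC medium stood above both arrays without it, and PA was the lowest of the 4. PA against control gave -0.37 (1.29-fold lower), ADSC medium against control 0.50 (1.42-fold), and PA and ADSC medium against PA 0.72 (1.64-fold higher), against a spot SD of 0.07. Casp12 was the only member at least 1.5-fold higher when ADSC medium was added to PA.

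Casp1 encodes the caspase that processes interleukin-1 beta and interleukin-18. Its probe (chr9:5306226-5306728, mm9, plus strand) was dim, at 3.23 with PA and ADSC medium, 2.89 with PA, 3.36 with ADSC medium and 2.90 in control cells, although it was well above background on all 4 arrays. The arrays with ADSC medium were the higher pair, as for Casp12, but the gap of 0.33 between PA with ADSC medium and control barely exceeded the spot SD of 0.27 at this intensity. The other neighbouring arrays in the order differed by less than that SD. With normexp background correction the difference for ADSC medium against control was 0.01 and that for PA and ADSC medium against PA 0.03. Leukocytes are known to express inflammatory caspases, and 6 of the 10 leukocyte markers were detected on at least 1 array. Their summed level was 10.43 with PA and ADSC medium, 9.70 with PA, 10.25 with ADSC medium and 9.76 in control cells on the log2 scale, with Ptprc, Adgre1, Cd163 and Clec4f never well above background. That sum was higher on the 2 arrays with ADSC medium, as were Casp12 and Casp1. It was led by Cd14, a lipopolysaccharide co-receptor gene, at 10.11 with PA and ADSC medium, 8.80 with PA, 9.81 with ADSC medium and 9.07 in control cells. Other markers ran the opposite way, as Lyz2 gave differences of -0.48 for PA and ADSC medium against control and -0.37 for ADSC medium against control, and Itgam was well above background on the 2 arrays without ADSC medium and on neither array with it. The median difference of the list was -0.13 for PA and ADSC medium against control and 0.09 for ADSC medium against control. The part of such RNA in the levels of Casp12 and Casp1 was not tested.

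Ripk3 encodes the kinase of necroptosis. Its probe (chr14:56403949-56404008, mm9, minus strand) read 13.49 with PA and ADSC medium, 13.40 with PA, 13.63 with ADSC medium and 13.56 in control cells. The whole range was 0.23, and neighbouring arrays in the order were 0.07 to 0.08 apart against a spot SD of 0.06. PA against control gave -0.15 and PA and ADSC medium against PA gave 0.08. No comparison of Ripk3 came near 1.5-fold.

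Mlkl encodes the membrane-rupturing effector downstream of RIPK3. Its probe (chr8:113835897-113835956, mm9, minus strand) read 12.31 with PA and ADSC medium, 12.32 with PA, 11.78 with ADSC medium and 11.80 in control cells. The arrays fell into 2 levels, with both PA arrays above both arrays without PA, and within each level they were no more than 0.03 apart, less than the spot SD of 0.06. The difference was 0.51 for PA and ADSC medium against control (1.42-fold), 0.52 for PA against control (1.43-fold) and 0.53 for PA and ADSC medium against ADSC medium (1.45-fold). None of these reached 1.5-fold, and each was more than 8 times the spot SD.

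**Figure D3:**
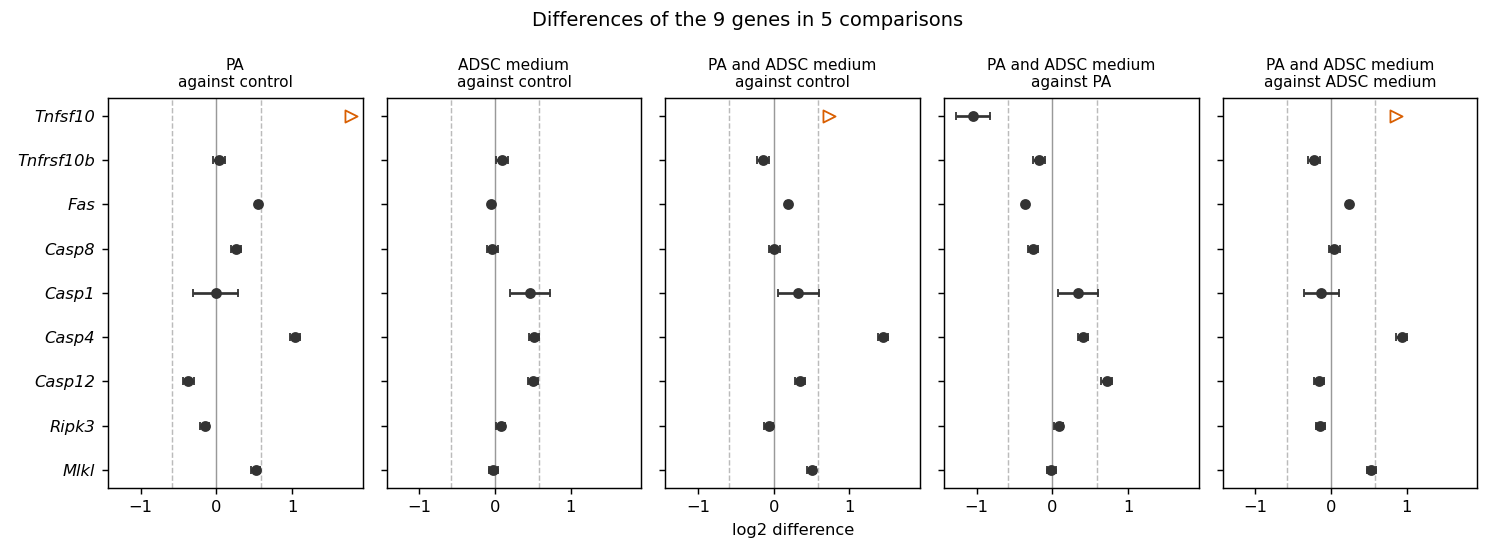
Log2 differences of the 9 genes in the 5 comparisons, with bars of 1 SD of a difference between spots at that intensity. Open triangles are lower bounds for Tnfsf10, which was not well above background on the array it was set against and has no value for ADSC medium against control, and dashed lines mark 1.5-fold. Casp4 and Tnfsf10 lie beyond 1.5-fold in each comparison of a PA array with an array without PA.

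The 5 comparisons share arrays, so a high or low array appears in several of them. With PA against control, 2 of the 9 members, Tnfsf10 (as a bound) and Casp4, passed 1.5-fold upward, against a background of 2.92% of 18209 genes compared, and 0 were lower, against 3.27%. The median of the members was 0.26 and that of all genes -0.01. With ADSC medium against control, 8 members had a value and 0 passed 1.5-fold in either direction, where 2.31% of all genes were higher and 1.29% lower. The members' median there was 0.08, and that of all genes -0.01.

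The combined treatment against control had 2 of the 9 higher, Tnfsf10 and Casp4 again, and 0 lower, against backgrounds of 4.68% and 3.67%. The median was 0.33 for the members and -0.02 for all genes. Against PA alone, it had 1 of the 9 higher (Casp12) and 1 lower (Tnfsf10), where 5.25% of all genes were higher and 3.72% lower, and both medians were -0.02. Against ADSC medium alone, it had 2 of the 9 higher (Tnfsf10 and Casp4) and 0 lower, against 3.54% and 3.14%, with medians of 0.04 for the members and -0.02 for all genes. At most 2 of 9 genes passed in a given direction of a comparison, and 7 or 8 passed in neither.

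At 2-fold, Tnfsf10 and Casp4 made 2 higher and 0 lower with PA against control, where 1.09% of all genes were higher and 0.599% lower. With PA and ADSC medium against control, Casp4 alone was called higher and 0 were lower, against 1.81% and 0.422%. The Tnfsf10 value there was a lower bound of 0.73, so whether it passed 2-fold was not determined. With PA and ADSC medium against PA, 0 were higher and Tnfsf10 alone was lower, against 1.75% and 0.507%. No member was called at 2-fold with ADSC medium against control, where the backgrounds were 0.533% higher and 0.121% lower. None was called with PA and ADSC medium against ADSC medium, where they were 1.26% and 0.477%. Tnfsf10 was a lower bound of 0.86 in that last comparison, so its 2-fold state was again not determined.

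The PA difference measured with ADSC medium present can be set beside that measured without it. For Mlkl the values were 0.53 with ADSC medium and 0.52 without it, and for Ripk3 -0.14 with and -0.15 without, so that these 2 genes parted by 0.01 each, less than the spot SD of 0.08 for such a double difference. For Casp4 they were 0.93 with and 1.04 without, apart by -0.11 against a spot SD of 0.09, and by -0.08 with normexp correction. For Fas they were 0.23 with and 0.54 without, apart by -0.31 against 0.0344, and for Casp8 0.04 with and 0.26 without, apart by -0.22 against 0.09. Casp12 had -0.16 with ADSC medium and -0.37 without it, apart by 0.21 against a spot SD of 0.10, but by 0.09 with normexp correction, less than that SD. For Tnfsf10 both values were lower bounds, 0.86 with and 1.78 without. The spot SD covers differences between spots within an array only. Whether these gaps exceed the variation between arrays or between cultures could not be tested.

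**Figure D4:**
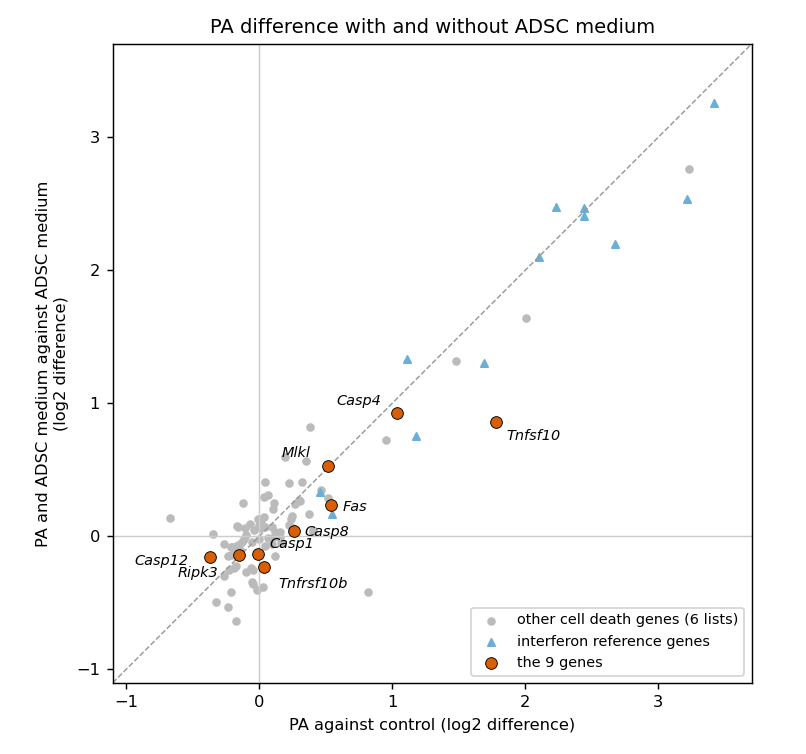
PA difference with ADSC medium present (vertical, PA and ADSC medium against ADSC medium) over the PA difference without it (horizontal, PA against control), both log2, for the 9 genes, the other cell death genes of 6 lists and the interferon reference genes. The dashed line marks equal differences, Tnfsf10 is a lower bound on both axes, and Mlkl, Ripk3 and Casp4 lie close to the line while Fas and Casp8 lie below it. The 2 axes share no array.

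Other genes of these pathways were read from 6 lists, beside an interferon reference list of 12 genes. Of all genes compared, 2.92% were higher and 3.27% lower with PA against control. With PA and ADSC medium against PA, 5.25% were higher and 3.72% lower. In lists this short, 1 gene called lies near what such shares give. The medians of the 6 lists lay between -0.16 (inflammasome and pyroptosis) and 0.11 (other caspases and apoptosome) for PA against control, and between -0.13 (receptor adaptors and inhibitors) and 0.05 (BCL2 family) for PA and ADSC medium against PA, where all genes had medians of -0.01 and -0.02. Of 17 other death ligands and receptors, 14 had a value for PA against control, with 1 higher and 1 lower. Fasl, the ligand of Fas, was dim, at 3.09 with PA and ADSC medium, 2.99 with PA, 2.50 with ADSC medium and 2.80 in control cells. Tnfrsf14, the receptor of LIGHT, read 4.17 with PA and ADSC medium, 5.21 with PA, 4.59 with ADSC medium and 4.39 in control cells, a difference of 0.82 for PA against control and -1.04 for PA and ADSC medium against PA, the only member of its list at least 1.5-fold lower in that second pair. With normexp correction those 2 differences were 0.21 and -0.35. Tnfsf15, a ligand for the death receptor DR3, gave -0.67 for PA against control, and -0.10 with normexp correction.

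Of 19 receptor adaptors and inhibitors, 1 was higher with PA against control and 0 lower, against 2.92% and 3.27% of all genes. It was Daxx, a death domain-associated protein of the nucleus, at 13.25 with PA and ADSC medium, 13.55 with PA, 12.53 with ADSC medium and 12.60 in control cells, a difference of 0.95 for PA against control. With PA and ADSC medium against PA, 1 of the 19 was higher and 0 lower, against 5.25% and 3.72% of all genes. It was Cflar, which encodes c-FLIP, the inhibitor of caspase-8 activation, at 10.87 with PA and ADSC medium, 9.92 with PA, 10.46 with ADSC medium and 9.88 in control cells. On this probe, its brightest, the 2 arrays with ADSC medium were the higher ones. The difference was 0.94 for PA and ADSC medium against PA and 0.04 for PA against control. Of the 7 probes of Cflar, 6 passed 1.5-fold upward for PA and ADSC medium against PA, and the 7 ranged from 0.23 to 0.94. They ranged from -0.20 to 1.06 for PA and ADSC medium against control and from -0.43 to 0.33 for PA against control. The order of the arrays was therefore not shared by all of them. Fadd, the adaptor, differed by 0.12 and Ripk1, the kinase upstream of RIPK3, by -0.17 for PA against control.

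None of the 15 other caspases and apoptosome genes reached 1.5-fold with PA against control or with PA and ADSC medium against PA. Of 14 inflammasome and pyroptosis genes on the array, 9 had a value for PA against control and 10 for PA and ADSC medium against PA, and 0 passed in either direction of either. Gsdmd, the pore-forming substrate of caspase-11, differed by 0.05 for PA and ADSC medium against control, where Casp4 differed by 1.44. The adaptor Pycard differed by -0.21 and Il18 by 0.03 for PA against control, and Il1b was well above background on none of the arrays.

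Of 10 other necroptosis genes, 2 were higher and 0 lower with PA against control, against 2.92% and 3.27% of all genes. Zbp1, a sensor of Z-form nucleic acid that engages RIPK3, read 10.47 with PA and ADSC medium, 10.58 with PA, 7.70 with ADSC medium and 7.35 in control cells. The double-stranded RNA receptor gene Tlr3 read 7.78 with PA and ADSC medium, 8.14 with PA, 6.14 with ADSC medium and 6.14 in control cells. Both were higher on the PA arrays, as Mlkl was. Unlike Mlkl, Zbp1 also differed by 0.35 between the arrays without PA (ADSC medium against control). Tlr3 differed by -0.36 between the PA arrays (PA and ADSC medium against PA). Their differences for PA and ADSC medium against control were 3.12 for Zbp1 and 1.64 for Tlr3, while PA and ADSC medium against PA gave -0.11 for Zbp1. Of the 16 genes of the BCL2 family on the array, 13 had a value for PA against control, with 1 higher, Pmaip1 (the BH3-only protein NOXA), and 0 lower. Pmaip1 read 6.71 with PA and ADSC medium, 6.41 with PA, 5.39 with ADSC medium and 4.93 in control cells, a difference of 1.48 for PA against control, which was 0.64 with normexp correction. With PA and ADSC medium against PA, 1 of 14 was higher, which was the dim BH3-only gene Hrk, at 0.64, or 0.11 with normexp correction.

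Against the median of 0.26 for the 9 cell death genes, the interferon reference list had 10 of 12 genes higher with PA against control and 0 lower, with a median of 2.17 and the largest differences in Mx2 (3.41), Ifit3 (3.22), Ifit1 (2.67) and Mx1 (at least 2.44, since it was not well above background in control cells, and 0.61 with normexp correction). Of all genes compared with PA against control, 2.92% were higher and 3.27% lower. With PA and ADSC medium against PA, 0 of the 12 passed in either direction, with a median of -0.02 for the 9 cell death genes and -0.22 for the reference list. Of the members, Tnfsf10, Fas, Casp4 and Mlkl stood higher on both PA arrays than on both arrays without PA. Casp1, Casp12, Ripk3 and the brightest probe of Tnfrsf10b did not. A part of interferon in these levels was not tested. Casp8 with PA and ADSC medium did not differ from control by more than the spot SD.

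**Figure D5:**
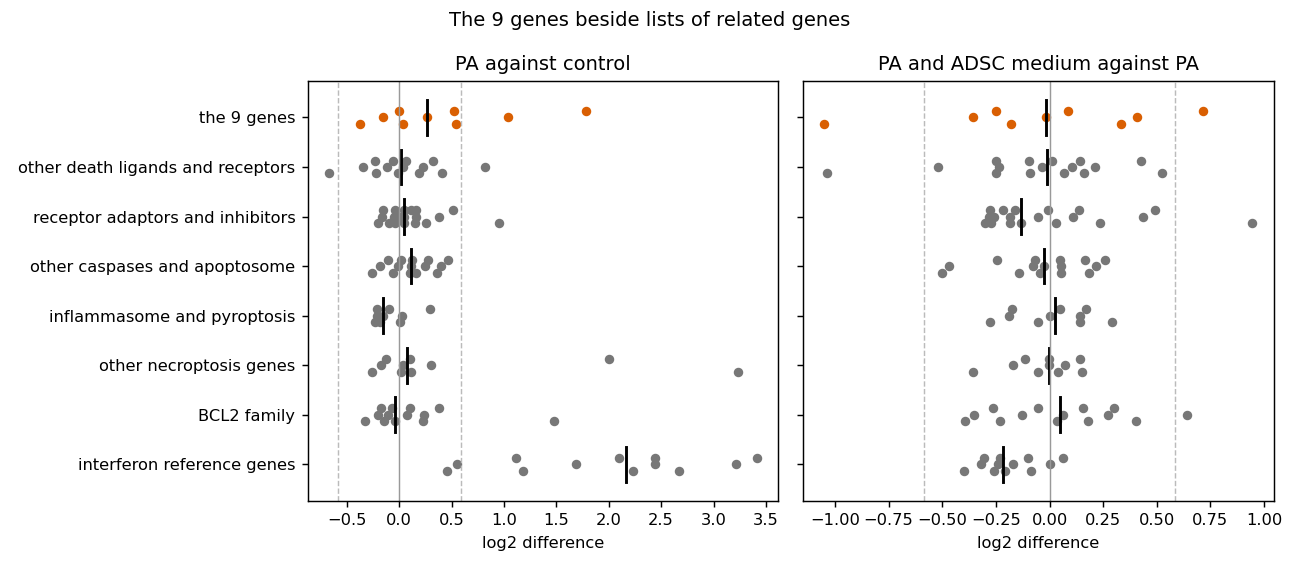
Log2 differences of single genes (points) with the median of each list (black tick) for PA against control on the left and PA and ADSC medium against PA on the right, for the 9 genes, 6 lists of related genes and the interferon reference genes. Dashed lines mark 1.5-fold, and for genes not well above background on 1 array, Tnfsf10 among them, the point is a lower bound. For PA against control the medians were 0.26 for the 9 genes and 2.17 for the interferon genes.

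The profiles of the members were also set against all other genes detected on the 4 arrays. Casp4 was the only member detected on every array whose level ranged over more than 1 log2 unit, and the 3 of 17347 genes nearest to it, each centred on its own mean, were Cd80, Hdc and Chit1, with root mean square distances of 0.073, 0.095 and 0.095. Cd80, which encodes a T cell costimulatory ligand, read 6.97 with PA and ADSC medium, 6.60 with PA, 6.02 with ADSC medium and 5.37 in control cells. That it has the order of Casp4 follows from picking it by its nearness to Casp4. Hdc encodes histidine decarboxylase and Chit1 a chitinase. Likeness over 4 arrays describes these arrays only.

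The authors' deposited tables hold 2 lists of names without values, one of features above control with PA and one of features above PA and ADSC medium with PA. The authors' deposited table for PA above control named 1580 of the 41174 features. Of the 12 probes of the 9 genes, 2 were listed there, the 10-spot Fas probe and Casp4. The authors' deposited table for PA above PA and ADSC medium named 920 of the 41174 features, and 0 of the 12 were listed. With so small a share of features named, a count of 0 among 12 probes says nothing particular about these genes. Tnfsf10 was in neither, and how a gene entered either table was not stated in the sources read.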

How the data were processed

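The 4 arrays were scanner output of Agilent Feature Extraction 12.1.1.1 (protocol GE1_105_Dec08, design 014868, positions on mm9), per the file headers. The values taken from each deposited file were processed intensity, already background-subtracted by that software, with its flags. The submitters' processing notes name R 3.5.1, and per the labels' design text the authors applied quantile normalization; the normalized table was not used here. Control spots and outlier-flagged spots (82 to 104 per array) were left out, spots of a probe averaged, and log2 values of the deposited intensity quantile-normalized with limma 3.58.1 in R 4.3.3. A gene was represented by its brightest probe over the 4 arrays. A gene entered a comparison when more than 50% of its spots were well above background on at least 1 of the arrays, and the dim side was set to the lowest well-above level. Gene names were those of the array, updated through RefSeq for 28680 of 41146 probes with a value.

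Genes called were at least 1.5-fold apart, with 2-fold as an alternative. With 1 array per group there was no test. The number of arrays limits precision, as does a signal near background, where replicate spots differ most. The calling steps were tested on simulated data. Named pathway genes were up to 4 per list with the largest absolute difference in PA against control or in PA and ADSC medium against PA among those at least 1.5-fold apart, with Fasl, Fadd, Cflar, Ripk1, Zbp1, Gsdmd, Pycard, Il1b and Il18 for orientation; 1 further gene is not reported here. For likeness, a member had to be detected on all arrays with a range of at least 1. Alternatives were scaling to the 75th percentile, normexp correction (offset 50), no filter on dim probes, the mean of a gene's detected probes and outlier spots kept. The members and lists were chosen with earlier results of these data known.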

Additional observations from a re-analysis of the deposited data

Results flagged for a closer look

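The differences of the brightest of 3 probes of Tnfrsf10b, the TRAIL receptor gene, took opposite directions in the pairs of arrays that ask the same question. The PA difference was -0.23 with ADSC medium present and 0.0370 without it, and the ADSC medium difference was -0.18 with PA present and 0.0865 without it. The spot SD of such a difference was 0.08, and the 2 values without the other treatment were close to or below it. The opposite direction for PA was on this probe alone, since the probe at chr14:70183189-70183248 gave 0.0221 with ADSC medium and 0.326 without it, and that at chr14:70175991-70176048 gave -0.0459 with and -0.0160 without. For ADSC medium the probe at 70183189 also had opposite directions, -0.213 with PA and 0.0906 without it, and that at 70175991 did not, with -0.133 and -0.103. With 1 array per condition the difference between them was not tested.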

How the results depend on the processing

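No paired analysis was possible because each condition had 1 array, and for the same reason no replicate could be left out. Counts of the 9 genes past 1.5-fold kept their values when arrays were scaled to the 75th percentile, when outlier spots were kept, without the filter on dim probes and with the mean of detected probes. With normexp background correction, 1 gene was higher in PA against control, 1 in PA and ADSC medium against control and 1 in PA and ADSC medium against ADSC medium, and 0 were lower in PA and ADSC medium against PA. Each of these lost Tnfsf10, whose intensity is near background, where the offset of 50 in that setting by itself shrinks differences. At 2-fold, 1 gene was higher in PA and ADSC medium against control, 0 in PA and ADSC medium against PA and 0 in PA and ADSC medium against ADSC medium. In the first and last of these Tnfsf10 was a lower bound, so its 2-fold state was not determined. Of 53 single-gene values (differences, and gaps between the PA difference with and without ADSC medium), 17 moved by more than the spot SD with normexp correction, 6 with the mean of detected probes, 3 without the filter, 1 with the 75th percentile and 0 with outlier spots kept, and no called difference changed sign. Without the filter, Tnfsf10 read 4.23 for PA against control. Tnfsf10 and Casp1, the members nearest the background level, have the least certain differences.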
